A study of Oryza sativa with 12 samples.

Results

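The departure of the rice line HFL1 from the combined differences of the lines GR14 and 35S-15 was measured in developing seeds. For each probe set it is the log2 signal of HFL1 minus GR14 minus 35S-15 plus wild type. It is 0 where the HFL1 difference from wild type equals the differences of GR14 and 35S-15 added together, and positive where HFL1 lies above that sum. All 12 arrays of the series entered it, 3 in each group, and 31792 of the 57381 probe sets were tested, namely each that exceeded the median of its array on 3 or more arrays.

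The groups were HFL1, GR14 and 35S-15, all labelled as high in seed lysine, and the variety Wuxiangjiang9 (WT), labelled as normal in lysine. The labels name the lines only, without the transgene, promoter, generation or number of transformants behind each, so what limits them as models is not known here. From earlier work on these lines, and not from the labels, HFL1 is known to combine the other 2. Seeds came from field-grown plants, at 10 days after flowering by the labels and 15 by the design text.

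Lysine is made in plastids from aspartate and is a limiting amino acid in rice grain. A developing seed holds a starchy endosperm, an embryo, an aleurone and a pericarp that stays green for part of its growth. In the circadian clock, the morning factor CCA1 and evening genes such as GI and PCL1 are expressed at opposite times of day. Chlorophyll is built from glutamate through GluTR, ALADH, the magnesium chelatase with its subunit CHLH, PORA and CAO, and CHLP supplies its phytol tail.

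The arrays ranked their probe sets alike (Spearman 0.925 to 0.971 between arrays), none held identical values, and their median log2 signals ran from 5.67 to 6.09. Storage protein genes mark endosperm, and the log2 of their summed linear signal was taken on each array. The brightest genes weigh most in it. It was 18.16 to 18.49 in HFL1, 18.17 to 18.66 in GR14, 18.31 to 18.89 in 35S-15 and 17.84 to 18.3 in WT. As a sum these genes were thus high on every array. The arrays labelled WT were not alike. The reporter probe set RPTR-Os-K01193-1_at had a log2 signal of 13.51 and 13.78 on WT arrays 2 and 3, against 4.53 on WT array 1 and at most 4.68 on the 9 arrays of the lines. WT therefore means the arrays labelled WT, and the counts below are also given with WT array 1 alone.

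HFL1 departed from the sum on 498 probe sets, 1.57% of those tested (limma, adjusted p under 0.05). It lay above the sum on 324 (1.02%) and below it on 174 (0.547%), and 472 departures were at least 2-fold (1.48%). With WT array 1 alone the count was 290, of which 173 were higher and 117 lower. Centring every array on its median gave 377 higher and 113 lower, and fitting the contrast to the linear signal gave 119 higher and 182 lower. Leaving out 35S-15 array 3, HFL1 array 1 or HFL1 array 3 gave 310, 297 and 326. The 498 probe sets kept their direction in every alternative fit that held them. Those fits reuse arrays of the main fit, which chose the probe sets, so the kept direction is no separate support. The 498 probe sets represent 357 genes, 59 of them with an informative symbol, and 116 probe sets had no gene. At the threshold, the last probe set called had an adjusted p of 0.04993 (departure of size 1.07) and the first not called had 0.05001 (size 0.949).

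The departures came mostly from transcripts on which GR14 was far from WT while HFL1 lay near 35S-15. The contrast can be read as the difference of HFL1 from 35S-15 minus the difference of GR14 from WT, which share no array. Among the 498 probe sets the median size of the difference was 0.214 log2 for HFL1 minus 35S-15 and 1.64 for GR14 minus WT, and the second was the larger on 484. By the levels themselves, 269 lay at least 2-fold below WT in GR14 and within 2-fold of it in 35S-15 and HFL1, and 112 were above WT in GR14 alone in the same way. Among all tested probe sets, 1371 and 961 had these patterns. On 49 called higher and 29 called lower, all 3 lines lay within 2-fold of WT, as on 26494 of all tested. The 3 GR14 arrays overlapped none of the other 9 on 453 of the 498 (91%), against 10.7% of all tested probe sets. Since the contrast holds these values, the shares describe the called probe sets and are no test. The HFL1 and WT arrays did not overlap on 108 (21.7%), against 12.9% of all tested.

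A set chosen by GR14 minus WT was described too. That difference is a part of the departure, so the set gives no separate test. GR14 minus WT was called on 1799 probe sets (5.66%), with a median size of 1.16 log2. On these, HFL1 minus 35S-15 had the same sign as GR14 minus WT on 889 (49.4%), was at least 50% as large on 54 (3%), and had a median of -0.253% of the GR14 difference. Of the 1084 that were also at least 2-fold in GR14, 24 had an HFL1 minus 35S-15 difference at least 50% as large. The matching shares over all tested probe sets were not counted. HFL1 minus 35S-15 was itself called on 2 probe sets (0.00629%). They were LOC4340325, at 5.27 (limma adjusted p 0.000374), and LOC4330940, at -2.05 (limma adjusted p 0.02495). Its unadjusted limma p was under 0.05 on 1418, against 6424 for GR14 minus WT and 4600 for the departure. With no difference at all, a share of 0.05 of the tested probe sets would fall there. Across all tested probe sets the Pearson correlation of HFL1 minus 35S-15 with GR14 minus WT was -0.051, over genes that share arrays within each difference.

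**Figure D1:**
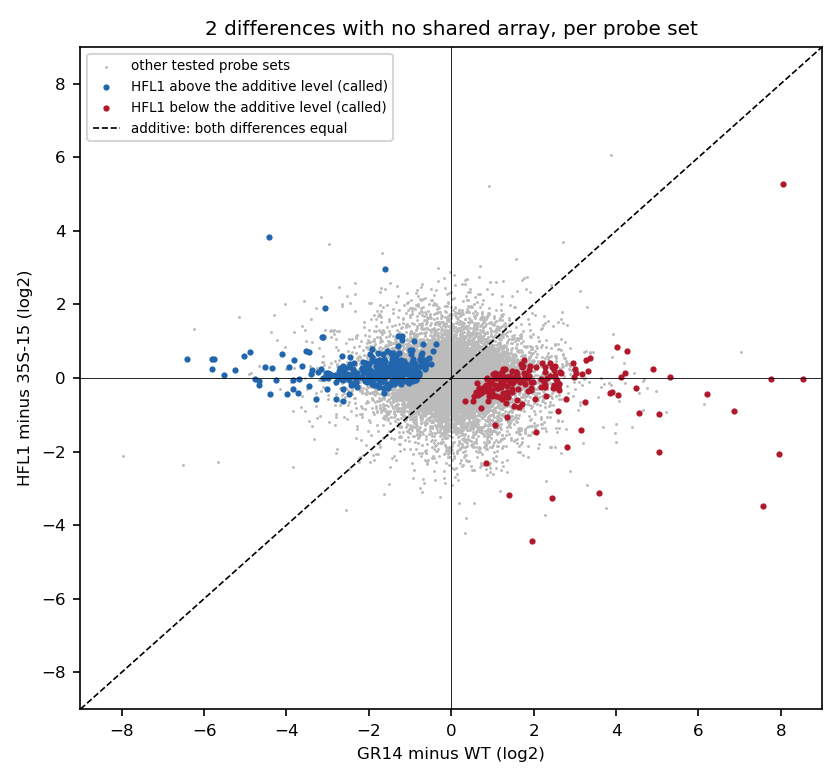
Difference of HFL1 from 35S-15 (vertical axis, log2) against that of GR14 from WT (horizontal axis, log2) for 31792 probe sets. The dashed line marks equal differences, where the departure is 0. The 324 probe sets called higher (blue) lie mostly left of 0 and the 174 called lower (red) right of 0, near a vertical value of 0.

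The clock genes included the smallest p-value of the departure. CCA1, the morning clock factor, had log2 signals of 13.29, 12.76 and 13.09 in HFL1, 9.09, 8.69 and 8.66 in GR14, 13.23, 12.67 and 12.45 on the 35S-15 arrays, and 13.21, 13.24 and 13.05 in WT. Only the GR14 arrays were apart, and HFL1 overlapped 35S-15 and WT. The departure was 4.61 ± 0.28 (SE, limma adjusted p 1.215e-05), and HFL1 minus WT was -0.12. GI, an evening clock gene, went the other way, at 11.08, 11.24 and 11.02 in HFL1, 12.49, 12.58 and 12.58 in GR14, 11.22, 11.12 and 11.14 on the 35S-15 arrays and 11.14, 10.98 and 11.23 in WT. Its departure was -1.48 ± 0.17 (limma adjusted p 0.0005526), again with GR14 alone apart. PCL1, another evening gene, had 5.72, 2.14 and 4.87 in HFL1, 10.5, 10.54 and 10.87 in GR14, 6.25, 5.54 and 1.73 on the 35S-15 arrays and 5.87, 5.6 and 6.16 in WT. Its departure of -5.02 ± 1.45 did not pass (limma adjusted p 0.1242), with widely spread arrays in HFL1 and 35S-15. Of the 7 clock genes tested, 1 was called higher and 1 lower, with a median departure of -0.465, against -0.0127 over all 16151 tested genes. With 1 probe set a gene, 2.07% of all genes were called, 1.42% higher and 0.65% lower.

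**Figure D2:**
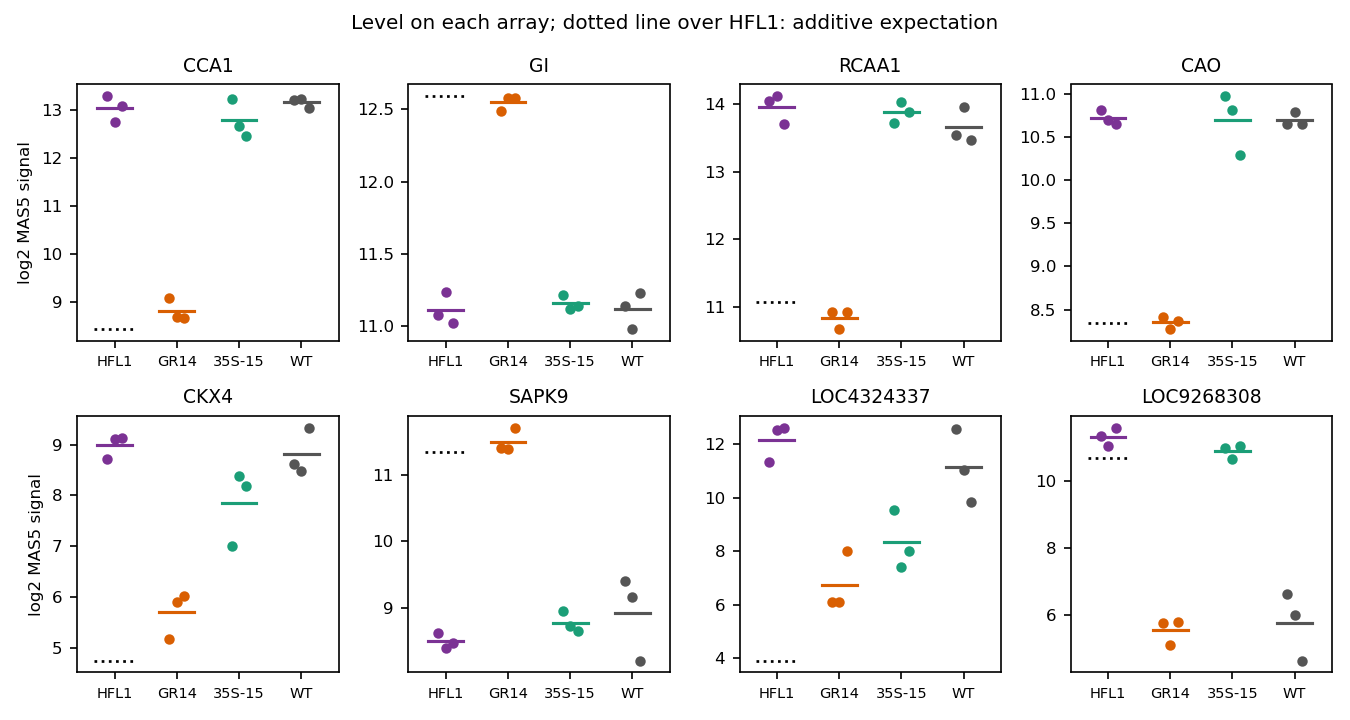
Log2 MAS5 signal on each array (points) with the group mean (bar) for 8 genes. The dotted line over HFL1 is the level expected if the GR14 and 35S-15 differences added. In the CCA1, GI, RCAA1, CAO and SAPK9 panels HFL1 lies beside WT and 35S-15 and away from that line; LOC4324337 is low in GR14 and 35S-15 and high in HFL1, and LOC9268308 lies near its expected level.

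Genes of photosynthesis and chlorophyll gave more calls than any other list. Of 17 photosynthesis and green pericarp genes tested, 7 were called higher (RCAA1, RCABP89, GLK1, GLK2, PORA, CHLH and PSAG) and 1 lower (LIR1). Their median departure was 0.879, and 13 were positive. RCAA1, the activase of RuBisCO, had log2 signals of 14.05, 14.12 and 13.71 in HFL1, 10.93, 10.67 and 10.92 in GR14, 13.73, 14.03 and 13.89 on the 35S-15 arrays and 13.54, 13.96 and 13.47 in WT. The departure was 2.89 ± 0.23 (limma adjusted p 4.677e-05), and 3 further RCAA1 probe sets were called at 2.66 to 3.51. RCABP89, a chlorophyll-binding protein of the antenna, was at 14.54, 14.77 and 14.62 in HFL1, 12.63, 12.04 and 12.16 in GR14, 14.42, 14.7 and 14.97 on the 35S-15 arrays and 14.16, 14.18 and 14.37 in WT. It departed by 1.91 ± 0.24, with the GR14 arrays all below the other 9. The chloroplast regulators GLK1 and GLK2 departed by 2.31 ± 0.33 and 1.33 ± 0.24, and 3 other GLK2 probe sets, at 1.38 to 2.1, did not pass.

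LIR1, a light-regulated chloroplast protein, moved against the rest of the list. It had 11.51, 11.71 and 10.93 in HFL1, 13.77, 13.64 and 13.15 in GR14, 10.66, 11.13 and 11.39 on the 35S-15 arrays and 10.61, 11.55 and 10.83 in WT. GR14 was high and the other 3 groups overlapped, and the departure was -2.2 ± 0.39 (limma adjusted p 0.01149). All 8 of these calls held in each fit that left out an array and with WT array 1 alone.

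Chlorophyll synthesis was taken as a theme after the values were seen, so its count is a description. Of 14 such genes, some also in the photosynthesis list, 6 were called higher and 0 lower by limma, with a median departure of 0.675. CAO, which makes chlorophyll b, had 10.81, 10.7 and 10.65 in HFL1, 8.42, 8.27 and 8.37 in GR14, 10.97, 10.81 and 10.29 on the 35S-15 arrays and 10.65, 10.79 and 10.65 in WT. HFL1 overlapped WT, and the departure was 2.37 ± 0.23 (limma adjusted p 0.0002056). CHLP departed by 1.71 ± 0.17, PORA by 2.96 ± 0.43, CHLH by 1.36 ± 0.22, GluTR by 1.25 ± 0.23 and ALADH by 0.87 ± 0.18. A second CHLH probe set was at -0.04, and GluTR and ALADH did not pass with WT array 1 alone. Of 3 chlorophyll breakdown genes none was called by limma. Of 10 plastid isoprenoid and carotenoid genes 1 was called, the phytoene synthase PSY2 at 1.88 ± 0.43 (limma adjusted p 0.04984), which did not pass with WT array 1 alone.

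The linear signal of the 17 photosynthesis genes was also summed on each array. Its log2 was 16.87 to 17.17 in HFL1, 16.24 to 16.36 in GR14, 16.9 to 17.27 in 35S-15 and 16.63 to 16.8 in WT. GR14 was below every other group, and HFL1 and 35S-15 were above WT. On single genes of the photosynthesis and chlorophyll lists HFL1 minus WT did not pass, with the lowest limma adjusted p at PORB (0.633, adjusted p 0.4763). These genes also mark the green pericarp, and in whole seeds fewer cells of a type and less RNA per cell cannot be told apart. The part of tissue make-up in the departures was not tested. For the 9 embryo and aleurone genes the log2 of the summed signal was also taken. It was 15.05 to 16.07 in HFL1, 15.64 to 16.76 in GR14, 15.96 to 16.61 in 35S-15 and 15.33 to 16.75 in WT. The sums overlapped between groups, but gene by gene the list was mostly below 0. Its median departure was -1.64, with 2 of the 9 genes positive. The list medians were -0.646 for HFL1 minus WT, -0.661 for HFL1 minus 35S-15 and 0.255 for GR14 minus WT. RAB21 and EM, at -2.63 and -1.88, did not pass (limma adjusted p 0.3811 and 0.3293), with widely spread arrays in HFL1 and WT.

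**Figure D3:**
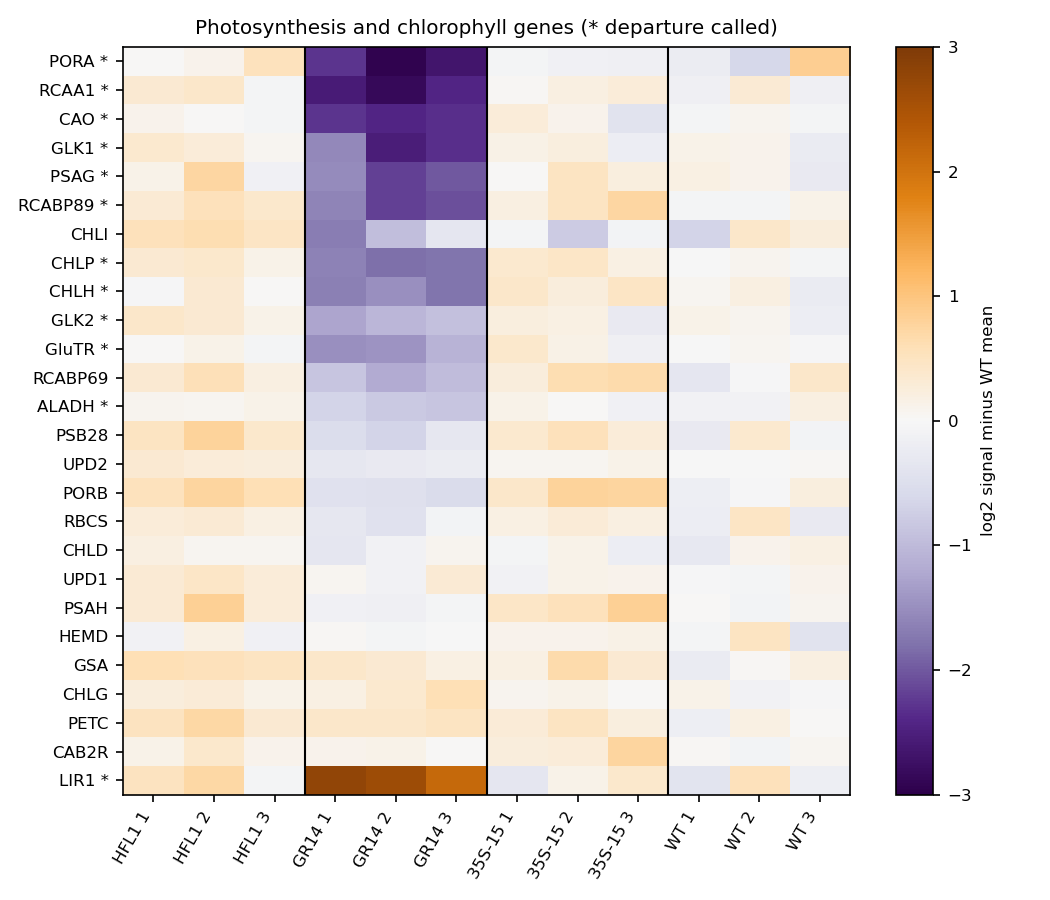
Log2 signal minus the WT mean (colour) of photosynthesis and chlorophyll genes (rows, by departure) on the 12 arrays (columns). Stars mark called departures. The GR14 columns are low for the upper rows and high for LIR1, while HFL1 and 35S-15 lie near 0 or somewhat above it.

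Further genes above the sum are given singly, by the size of their departures. FRO1, a ferric iron reductase, had 10.58, 10.61 and 10.54 in HFL1, 7.99, 7.87 and 7.98 in GR14, 10.71, 10.53 and 10.55 on the 35S-15 arrays and 10.69, 10.74 and 10.47 in WT. The 9 arrays outside GR14 lay within a narrow band, and the departure was 2.67 ± 0.18 (limma adjusted p 2.78e-05). It was the only one called of 17 iron and nicotianamine genes. SWEET2B, a sugar transporter, had 9.89, 9.23 and 9.71 in HFL1, 5.58, 1.81 and 3.08 in GR14, 9.9, 9.15 and 8.21 on the 35S-15 arrays and 9.81, 9.55 and 8.42 in WT on 1 probe set. GR14 was widely spread there and its mean was below the array median, with a departure of 6.29 ± 1.04, while a second probe set gave 3.68 ± 0.61 (limma adjusted p 0.007547 and 0.007788). It was the only one called of 15 sugar transport genes.

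CLA1, of the first step of plastid isoprenoid synthesis, departed by 4.48 ± 0.76 on 1 probe set, where the GR14 mean of 3.55 was below the array median. A brighter CLA1 probe set was at 0.354 (limma adjusted p 0.702). TRXF, a chloroplast thioredoxin, departed by 2.5 ± 0.32, and the plastid pyruvate transporter BASS2 by 1.45 ± 0.21. BGLU19, a beta-glucosidase, departed by 2.77 ± 0.38, APR-like1 by 2.81 ± 0.51, and MSRB1, a methionine sulfoxide reductase, by 2.15 ± 0.41, which did not pass with WT array 1 alone. The aquaporins PIP2-2 and PIP1-3 departed by 1.7 ± 0.27 and 1.25 ± 0.25, and the magnesium transporter MRS2-A by 1.44 ± 0.23. The departures given here passed, except that of the second CLA1 probe set. A brighter MSRB1 probe set, at 1.05, did not pass (limma adjusted p 0.229). Further probe sets of APR-like1, BASS2 and PIP2-2, at 1.85, 1.33 and 3.54, did not pass either (limma adjusted p 0.261, 0.0531 and 0.148).

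CKX4, which degrades cytokinins, had 8.71, 9.11 and 9.12 in HFL1, 5.18, 5.92 and 6.02 in GR14, 7.01, 8.39 and 8.18 on the 35S-15 arrays and 8.62, 8.48 and 9.33 in WT. HFL1 lay above every 35S-15 array, GR14 lay below every other array, and the departure was 4.23 ± 0.52 (limma adjusted p 0.001054). HFL1 minus 35S-15 alone, at 1.13 ± 0.37, did not pass (limma adjusted p 0.974). Of 27 cytokinin genes 2 were called, both higher, the other being the receptor kinase HK5 at 1.05 ± 0.22. The HK5 call was lost in 7 of the 12 fits that each left out an array and with WT array 1 alone. Among 20 shikimate and phenylpropanoid genes, the cinnamyl alcohol dehydrogenases CAD3 and CAD were called, at 2.14 ± 0.25 and 0.97 ± 0.22, and the median departure was 0.657. The CAD call was lost in 11 of the 12 fits that each left out an array. ASMT3, a methyltransferase of the melatonin pathway, departed by 2.73 ± 0.45, and was the only one called of 8 tryptophan, serotonin and melatonin genes. There T5H was at 0.92 ± 0.28 (limma adjusted p 0.1397). Of the 7 lysine and aspartate family genes, the S-adenosylmethionine synthetase SAMS2 alone was called, at 0.93 ± 0.17 (limma adjusted p 0.01472), with a second probe set at 0.54 that did not pass. SAMS2 did not pass with WT array 1 alone (limma adjusted p 0.0683). The median departure of that list was -0.0716.

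Genes below the sum were mostly high in GR14 alone. SAPK9, a kinase of abscisic acid signalling, had 8.61, 8.39 and 8.47 in HFL1, 11.4, 11.39 and 11.71 in GR14, 8.95, 8.72 and 8.64 on the 35S-15 arrays and 9.41, 9.16 and 8.2 in WT. HFL1 overlapped the WT range, and the departure was -2.86 ± 0.36 (limma adjusted p 0.001194), the only call among 15 genes of that list. BBD1 departed by -2.78 ± 0.27, and TULP3, a tubby-like protein, by -1.5 ± 0.27 with a second TULP3 probe set at 0.83 that did not pass. JAZ2, a repressor of jasmonate signalling, departed by -3.13 ± 0.72, the heat shock factor HSF03 by -2.78 ± 0.56, SAUR39, of the small auxin-up RNA family, by -2 ± 0.37, and the seed maturation factor VP1 by -1.64 ± 0.37. These last 4 did not pass with WT array 1 alone, where their values were -2.19, -2.47, -1.75 and -1.03. JAZ2, HSF03 and VP1 also lost the call in 8, 6 and 10 of the 12 fits that each left out an array. JAZ2 was the only call among 27 jasmonate genes (median departure 0.175), and VP1 among 9 embryo and aleurone genes (median -1.64). C3H37, a zinc finger protein, the telomerase TERT, MS and the gibberellin-inactivating CYP714D1 departed by -1.77, -1.47, -1.41 and -1.15, and none of these passed with WT array 1 alone (limma adjusted p 0.24, 0.159, 0.126 and 0.173).

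MT4C, a metallothionein, was the lowest of the genes with a symbol and the only call among 7 metallothioneins (median -0.128). It had 5.81, 2.35 and 1.39 in HFL1, 8.88, 8.88 and 8.23 in GR14, 8.1, 7.8 and 6.93 on the 35S-15 arrays and 6.86, 7.69 and 5.58 in WT. The departure was -6.38 ± 1.25 (limma adjusted p 0.02093), and HFL1 minus 35S-15 was -4.43 ± 0.89. The HFL1 mean was below the array median, and the departure was -6.23 with an adjusted p of 0.106 with WT array 1 alone (limma).

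**Figure D4:**
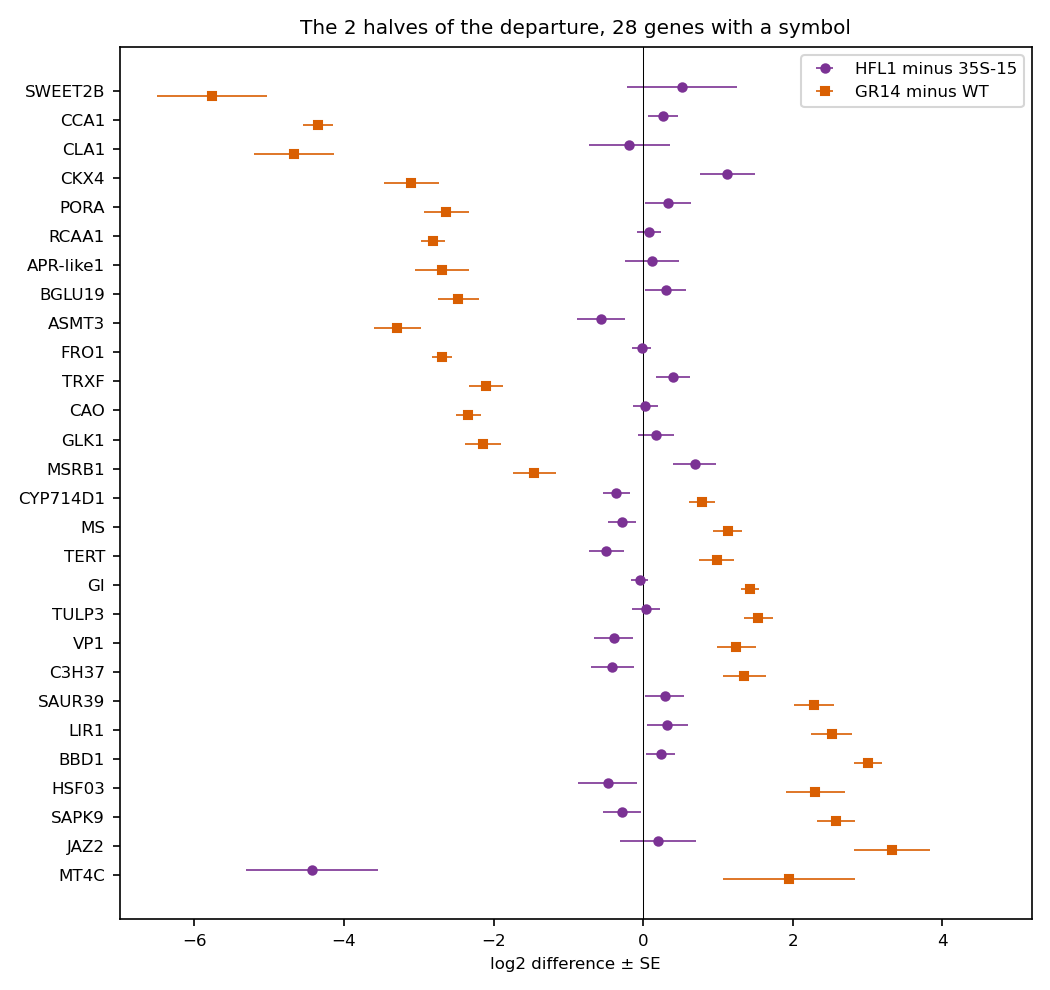
The 28 genes with a symbol and the 14 highest and 14 lowest called departures, with HFL1 minus 35S-15 (circles) and GR14 minus WT (squares) in log2 ± SE. The circles lie near 0 except for MT4C and CKX4, while the squares lie to either side.

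Other patterns were rarer. LOC4324337 was the only called probe set at least 2-fold below WT in GR14 and 35S-15 and at least 2-fold above it in HFL1, with 11.34, 12.53 and 12.61 in HFL1, 6.11, 6.09 and 7.99 in GR14, 9.55, 7.41 and 8.02 on the 35S-15 arrays and 12.57, 11.04 and 9.82 in WT. HFL1 overlapped WT and lay above both other lines, and its departure was 8.25 ± 1 (limma adjusted p 0.0009542). HFL1 minus WT and HFL1 minus 35S-15 did not pass for it (limma adjusted p 0.8342 and 0.3752). LOC4331398 was near 13.5 in all 3 lines and low in WT, at 4.56, 6.8 and 6.39, so an equal rise in every line gave a departure of -7.78 ± 0.56. Among other genes without a symbol, LOC4327573 and LOC4336497 departed by 5.61 each and LOC4337388 by -4.77. GR14 minus WT was -5.53, -5.02 and 4.49 in that order, and LOC4336497 and LOC4337388 did not pass with WT array 1 alone (limma adjusted p 0.101 and 0.0542). In all, 14 called probe sets lay at least 2-fold above WT in all 3 lines, against 358 of all tested.

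Some transcripts high in a line with respect to WT were high in HFL1 too. LOC9268308 differed from WT by 5.53 in HFL1, by -0.2 in GR14 and by 5.1 in 35S-15; its departure of 0.63 did not pass (limma adjusted p 0.6425). LOC4340325 differed from WT by 8 in HFL1, 8.04 in GR14 and 2.73 in 35S-15, with a departure of -2.78 ± 0.6 (limma adjusted p 0.0361), so that HFL1 lay below the sum. That call was lost in 10 of the 12 fits that each left out an array. Its level in HFL1, at 10.63, 10.81 and 10.64, overlapped that in GR14, at 10.58, 10.87 and 10.77. On this probe set the means of 35S-15 (5.43) and WT (2.7) were below the array median. A second LOC4340325 probe set departed by 0.104 (limma adjusted p 0.927). Its means were 7.68 in HFL1, 7.67 in GR14, 7.72 in 35S-15 and 7.81 in WT. These transcripts were singled out in earlier results because they follow the line labels.

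Many lists held few calls or none. Of the 24 endoplasmic reticulum folding genes, 6 WRKY factors, 19 proteasome, 7 nitrogen and 9 storage protein genes none was called by limma, with median departures of 0.216, -0.0894, 0.154, -0.0877 and -0.524. ERDJ3A, a chaperone of the endoplasmic reticulum, came nearest in that list at 1.78 ± 0.47 (limma adjusted p 0.08834). Of 43 heat shock genes 2 were called, HSP17.9B higher and HSF03 lower, and neither passed with WT array 1 alone. Outside that count, HSP18.0 was called at -1.03 ± 0.22 on 1 probe set (limma adjusted p 0.036). Its brighter probe sets, at -2.9 and -0.127, did not pass (limma adjusted p 0.219 and 0.769). The HSP18.0 call was lost in 9 of the 12 fits that each left out an array. The starch synthase SSII-2 was called at 1.76 ± 0.33, with a second probe set at -0.06, and was alone among 7 starch synthesis genes. Of 17 antioxidant genes the peroxidase PRX112 alone was called, at 1.41 ± 0.25. A second PRX112 probe set, at -0.56, did not pass (limma adjusted p 0.468). Neither SSII-2 nor PRX112 passed with WT array 1 alone.

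**Figure D5:**
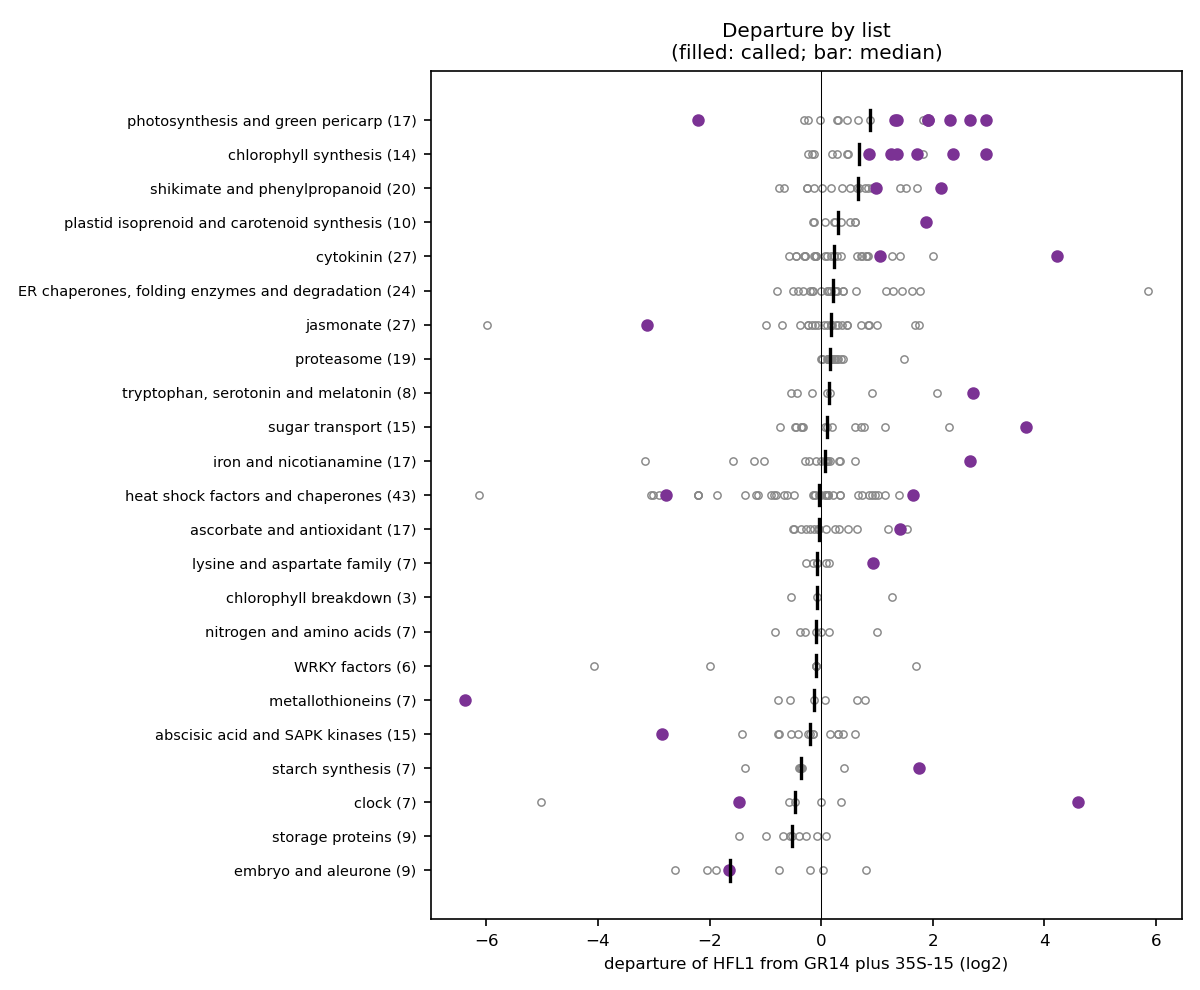
Departure of each tested gene (points, log2) by list, with the number of genes in parentheses. Filled points are called and the bar is the list median. Photosynthesis and chlorophyll synthesis hold 7 and 6 calls above 0, and most other lists hold at most 2 in all.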

How the data were processed

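Signal was measured on 12 Affymetrix rice arrays. The authors deposited a linear intensity for each probe set, made with MAS5 per the submitters' processing notes, with its version not given in the sources used here. The mean trimmed by 2% at each end was 500.1 on each array. From these, log2(signal) was fitted with limma 3.58.1 in R 4.3.3 (lmFit, then eBayes with a trend on intensity), as 4 groups of 3 arrays, two-sided, with Benjamini-Hochberg adjustment at 0.05 over 31792 probe sets. Control (123 AFFX) and reporter (64 RPTR) probe sets were not tested. No detection calls were used, and precision is limited by the number of arrays. With WT array 1 alone, its spread is assumed to be that of the other groups. The labels do not say that arrays came from separate plants, so p-values measure the spread between arrays, which may be technical. Replicates were numbered in accession order. The members and lists were chosen with earlier results of these data known. Named genes were the 14 highest and 14 lowest called departures of at least 2-fold with a symbol, the 3 highest and 3 lowest LOC genes, up to 4 a list, and a few genes of earlier interest; further genes were named after their values were seen. List members were matched by symbol, with 1 probe set a gene, that of the highest mean. Genes were named from the array annotation (22436 probe sets with 1 gene, 95 with several, 34850 with none) and RefSeq's gene table of assembly ASM3414082v1. The fit was tested on simulated data. Of 100 simulated departures of 1 log2 it called 7, and of 100 of 2 log2 it called 49, with 0 false calls in each. A gene that was not called may therefore still depart. The simulated departures were of fixed sizes, unlike those of the data, so these shares may not hold for the real fit. A planned likeness to CCA1 and a motif search were not run. The alternatives are those in the closing section.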

Additional observations from a re-analysis of the deposited data

Results flagged for a closer look

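The differences of HFL1 from 35S-15 and of GR14 from WT, which share no array, differed on 498 probe sets (limma, adjusted p under 0.05). On 12 of these both differences were at least 2-fold, of opposite sign, and the arrays of each pair did not overlap. How many of all tested probe sets met these conditions was not counted. On none of the 12 did HFL1 minus 35S-15 pass its own test (limma adjusted p 0.2341 to 0.974), and GR14 minus WT did not pass for MT4C, LOC4347709 and the unnamed probe sets at -4.58 and 4.58. Those higher in HFL1 than the sum were LOC4324337 at 8.25, CKX4 at 4.23, and unnamed probe sets at 4.97 and 4.58. Those lower were LOC9268613 at -11.04 and -4.56 on 2 probe sets, an unnamed probe set at -6.7, MT4C at -6.38, LOC4347709 at -5.72, and unnamed probe sets at -4.58, -3.52 and -2.34. LOC9268613 had mean log2 signals of 7.05 in HFL1, 9.34 in GR14, 8.46 in 35S-15 and 6.2 in WT on the brighter of its probe sets. On its other probe set, at -11.04, the means of HFL1 (3.88) and WT (2.32) were below the array median. At least 1 group mean was below the array median on every other probe set of the 12 except those of LOC4324337 and the unnamed one at -2.34; for MT4C and LOC4347709 it was that of HFL1 (3.18 and 3.64). LOC4347709 did not pass in 9 of the 12 fits that left out an array.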

How the results depend on the processing

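The count of called departures was 498, and it was 253 without the intensity trend, 301 on linear signal, 290 with WT array 1 alone and 297 to 534 when each array was left out in turn. The other alternatives gave 406 to 662: quantile normalization 505, median centring 490, no filter 444, a 70th percentile filter 576, log2(signal + 50) 559, no _x_at or _s_at probe sets 420, a robust prior 510, array weights 662, 1 probe set per gene 406 and a 2-fold minimum 472. Median centring moved the median departure of all probe sets to 0.12, from -0.029. The 381 called probe sets with GR14 alone 2-fold from WT became 209 without the trend, 199 with WT array 1 alone and 251 to 413 when an array was left out. GR14 minus WT, called on 1799, gave 747 with WT array 1 alone and 972 to 1805 when an array was left out, with 1170, 1007 and 972 without WT array 1, WT array 2 and GR14 array 2. HFL1 minus 35S-15 gave 1 to 3. The causes were not tested. Of the 68 named called probe sets, 21 passed in all settings that held them, 43 in every fit that left out an array and 37 with WT array 1 alone; none reversed. No paired analysis was possible because the labels give no replicate number within a group. Precision is limited by 3 arrays a group, and 52 of the 498 had a group mean below the array median.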

Other observations

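The 16013 tested genes that could be placed were put in RefSeq order along the chromosomes. A neighbour was the next tested gene, so untested genes may lie between. Called genes neighboured each other in 14 pairs, 10 with departures of the same sign, such as SSII-2 and CHLP, and CAO and LOC4349429. Of 334 called genes placed, 28 had a called neighbour (8.38%), against 4.13% of all genes placed. Of 87 called genes with other tested probe sets, 72 had the same sign on all of them and 13 were called on all. The same-sign share over all genes with several tested probe sets was not counted.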
